A study of Caenorhabditis elegans with 4 samples.

Results

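ZHP-3 peaks on chromosome V are the places on the longest chromosome of the nematode Caenorhabditis elegans where chromatin immunoprecipitation with sequencing (ChIP-seq) called enrichment for the protein ZHP-3. They were chosen by position alone, as every peak listed on V in the authors' deposited lists. These were 1175 of 6537 peaks in replicate 1, 1120 of 6086 in replicate 2 and 2179 of 11798 in a list deposited for the series as a whole, called the combined list here. V made up 20.9% of the 100.3 Mb of nuclear sequence spanned by the lists and held 18.0%, 18.4% and 18.5% of their peaks.

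All samples came from whole hermaphrodites of the strain fem-2(b245), genotype fem-2(b245)III, grown at 20 °C. The gene fem-2 acts in sex determination and is needed for male development. The labels name a young adult stage with a germline, whereas the culture protocol describes animals that were gravid when collected. Ground animals were fixed with 1% formaldehyde for 10 min, and 5 µg of the antibody SDQ3925, rabbit polyclonal and affinity-purified against ZHP-3, was used for each precipitation. There were 2 ChIP samples and 2 input samples, with no other genotype and no sample without ZHP-3. Extracts of whole animals mix germline nuclei of different meiotic stages with somatic nuclei, and with those of embryos where animals were gravid. Nothing in the labels says whether the replicates came from separate cultures, so the spread between them may be technical.

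ZHP-3 is a RING-finger protein that loads along paired homologous chromosomes during meiotic prophase and later becomes restricted towards crossover sites. Crossovers in this species form mainly on the outer parts of each chromosome, the arms, and rarely in the gene-dense centre. The chromosomes have no fixed point-like centromere, and each carries near 1 end a pairing centre, a stretch bound by a zinc-finger protein that brings homologues together. On V the pairing centre lies at the right end and is bound by ZIM-2. The right arm of V also carries the tandem array of genes for 5S ribosomal RNA, the small ribosomal RNA made by RNA polymerase III, alternating with genes for the SL1 spliced leader RNA.

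Coordinates are on the WS220 build, 1-based, as the file headers give it. No sequence of that build was at hand, so the sites are given by position, and no gene was assigned to a peak. Each peak has a score from the authors' peak caller on a scale the files do not state. It serves here to order the peaks of each list, and many of the strongest peaks share the value 3100. Read depth is unknown, and input libraries were not analysed here. With 2 samples of 1 group no test between groups exists, so the values below are descriptions, given for each replicate.

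Peaks on V were mostly narrow. Replicate 1 peaks had a median width of 421 bp, replicate 2 peaks 402 bp and combined-list peaks 316 bp. The combined list came from another version of the caller, so its widths and coverage are not directly comparable with those of the replicates. Peaks of 1500 bp or more were few, 62 in replicate 1 (5.28%) and 50 in replicate 2 (4.46%). Their median scores were high, 2071 and 3100 against 73.3 and 71.7 for peaks under 300 bp. Single wide peaks could still score low in 1 replicate. Examples in replicate 1 were a 3638 bp peak at 144 and an 1847 bp peak at 50.5, whose replicate 2 partners scored 2183 and 550. Together the replicate 1 peaks covered 694 kb of V (3.32% of its length), those of replicate 2 covered 620 kb (2.96%) and those of the combined list 1103 kb (5.27%).

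Most V peaks recurred in the other replicate. Of the replicate 1 peaks, 867 of 1175 (73.8%, exact Clopper-Pearson 95% interval 71.2% to 76.3%) overlapped a replicate 2 peak by at least 1 bp, and 73.4% did over all chromosomes. Of the replicate 2 peaks, 905 of 1120 (80.8%, 78.4% to 83.1%) overlapped a replicate 1 peak, against 81.7% over all chromosomes. V was thus close to the background of the series in both directions. The intervals cover counting error only and take peaks as independent, while many are neighbours.

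Recurrence followed the score. In the lowest-scoring 25% of the V peaks 42.2% of replicate 1 and 54.6% of replicate 2 peaks had a partner, and in the highest-scoring 25% 97.6% and 99.3% did. Paired peaks lay almost in register: for the 756 peaks of V matched to exactly 1 peak of the other replicate, the midpoints differed by a median of 26.3 bp and the start positions by 34.0 bp. Their scores had a Spearman correlation of 0.76 across peaks, which are not replicates and share the 2 libraries. Replicate 1 peaks were the wider of the pair in 55.7% of these.

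A small set of strong peaks had no partner, most of them in replicate 1. In the highest-scoring 25% of V, 7 replicate 1 peaks and 2 replicate 2 peaks had no partner. The strongest, 3269 bp wide, lay on the left arm (3978139 to 3981407) and scored 3221 in replicate 1, while the nearest replicate 2 peak was 8.93 kb away. A second replicate 1 peak close by (3984298 to 3985204) scored 579 and had no partner either.

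The next was a pair of adjoining peaks further left. The 1850 bp peak at 1447002 to 1448851 scored 3100 and the 1276 bp peak at 1448979 to 1450254 scored 1044, and no replicate 2 peak lay within 16 kb of them. Other replicate 1 peaks without a partner stood at 1593872 to 1595117 (score 1063), 11147173 to 11148629 (1381) and 17265577 to 17266644 (436). All 7 were overlapped by combined-list peaks, at scores from 12.9 to 63.1, as were 298 of all 308 replicate 1 peaks of V without a partner (96.8%). The 2 such peaks of replicate 2, at 3098846 to 3099619 and 11817424 to 11818176, scored 369 and 364.

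Among the top 10% of replicate 1 scores over the genome, V had 5 peaks without a partner of 131, chromosome II 3 of 104 and III 1 of 109, and I, IV and X had 0 of 104, 133 and 73. In replicate 2 the count on V was 0 of 117. What set these sites apart between the replicates was not tested.

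Merging the overlapping peaks of both replicates gave 1354 regions on V, and both replicates had a peak in 831 of them (61.4%). This share was 58.8% to 64.9% on the other chromosomes, so V lay within their range. These 831 shared regions had a median width of 514 bp and spanned 626 kb, or 2.99% of V. Their density was 39.7 per Mb, against 38.5 on the X and 43.7 to 57.4 on the other chromosomes. In 756 of them (91.0%) exactly 1 peak of each replicate met, and this share was 91.9% to 94.9% on the other chromosomes. All but 1 of the shared regions were also overlapped by the combined list.

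The strongest shared sites of V were ranked by the score of the combined list, taking 1 region where several lay under the same combined peak. First was a 2017 bp region on the left arm (6070985 to 6073001, combined score 211), at the left edge of a block described further on. Then came 1254109 to 1255663, also on the left arm (207) and 9546101 to 9547331 in the centre (200). In 9 of the top 10 the replicate peaks scored 3100 in both lists. The exception was the centre site at 9546101, which scored 2104 in replicate 1 and 3107 in replicate 2.

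The left arm held 6 of these 10 sites. Beside the first pair they were 6587568 to 6588953 (combined score 196), 1255991 to 1258544 (192), 6091332 to 6092463 (191) and 6299149 to 6300251 (189). The regions at 1254109 and 1255991 are close neighbours, under 1 kb apart. Those at 6070985 and 6091332 both lie in the same block, described further on, so the 6 sites are not all separate places. In the centre were 8315829 to 8316794 (190) and 9601656 to 9603823 (187) beside the site at 9546101. The right arm had 1 site, 14155140 to 14156538 (193), just inside its border with the centre. The widths of the 10 ran from 966 to 2554 bp.

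Scores of 3100 or more in both replicates were found in 29 shared regions of V, with a median width of 2094 bp. They were spread over the chromosome, with 11 on the left arm, 11 in the centre and 7 on the right arm. Median scores of all shared regions differed little between the parts, at 257, 236 and 268 in replicate 1 and 239, 216 and 236 in replicate 2 for left arm, centre and right arm.

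**Figure D1:**
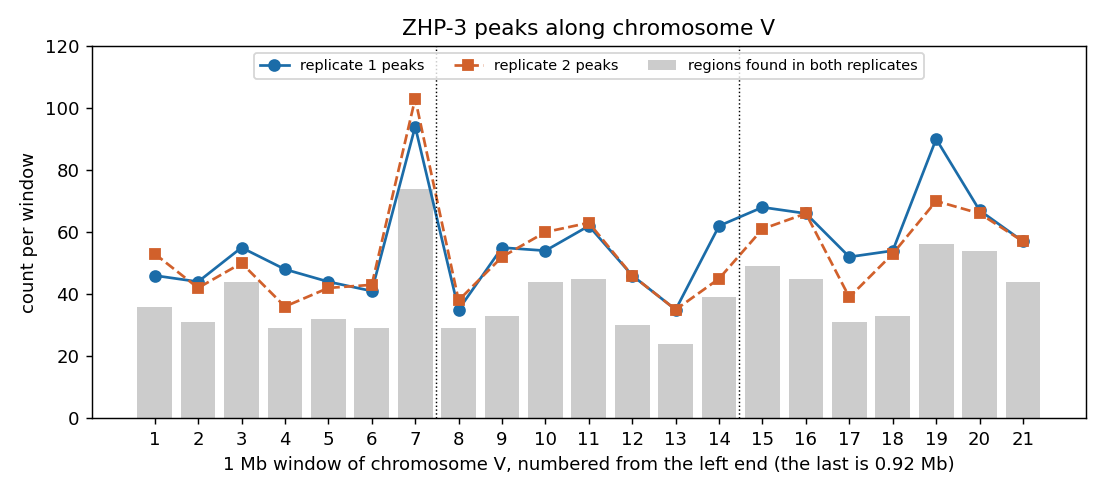
Peaks of replicate 1 (circles) and replicate 2 (squares) and shared regions (grey bars) in consecutive 1 Mb windows of V, numbered from the left end, with dotted lines at the borders of 3 equal parts. Window 7 stands highest with 94 and 103 peaks, and window 19 has 90 and 70.

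Along V the peaks were unevenly spread, in the same way in both replicates. Over the 20 full windows of 1 Mb, replicate 1 had 35 to 94 peaks with a median of 54.0, and replicate 2 had 35 to 103 with a median of 51.0. The Pearson correlation between the replicates over these windows was 0.88 and Spearman's was 0.85; the windows share the 2 libraries and their mappability. Window 7, from 6 to 7 Mb, was the highest in both, with 74 shared regions against a median of 34.5. Window 13, from 12 to 13 Mb, was the lowest in shared regions, with 24, and held 35 peaks in each replicate. Window 19, from 18 to 19 Mb on the right arm, was the second highest, and here the replicates differed, at 90 and 70 peaks.

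The chromosome was then divided into 3 equal parts of 6.97 Mb, with borders at 6.97 Mb and 13.9 Mb, the outer ones standing for the arms. Left arm, centre and right arm name these parts for all sites given here. They were set by length alone and not by crossover borders, so a site near a border may belong to another part by crossover rate. The right arm was the densest, with 454 peaks in replicate 1 and 412 in replicate 2, or 62.1 ± 4.26 peaks per Mb (SD, n = 2). The left arm had 370 and 367 peaks, 52.8 ± 0.304 per Mb, and the centre 351 and 341, 49.6 ± 1.01 per Mb. In each replicate the right arm was densest, and its gap to the other parts was larger than the spread between replicates. The lead of the left arm over the centre, 1.07 ± 0.016 times (SD, n = 2), rested on the 25.4 kb block described further on. Without that block the left arm had 342 and 330 peaks and fell below the centre in both replicates, at 0.974 and 0.968 times. The shared regions outside the block were nearly level, with 248 on the left arm and 246 in the centre.

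The right to left arm ratio averaged 1.17 ± 0.074 (SD, n = 2), from 1.23 for replicate 1 and 1.12 for replicate 2. The shared regions gave 1.14, with 312 on the right arm, 273 on the left arm and 246 in the centre. The same ratio of the replicate means was 1.25 on II and 1.15 on the X, and between 0.912 and 1.01 on I, III and IV. A right arm denser than the left was therefore seen on V, II and X in both replicates.

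The arm to centre ratio on V averaged 1.16 ± 0.022 (SD, n = 2), from 1.17 for replicate 1 and 1.14 for replicate 2, beside 1.03 to 1.199 on the other chromosomes. This ratio hung on where the arms were taken to end. With the outer 25% at each end as arms it was 0.943 ± 0.059, the opposite direction, and the dense window from 6 to 7 Mb then falls into the centre. It was 1.07 when peaks under 1 kb apart were counted once, an alternative chosen after the data were seen.

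**Figure D2:**
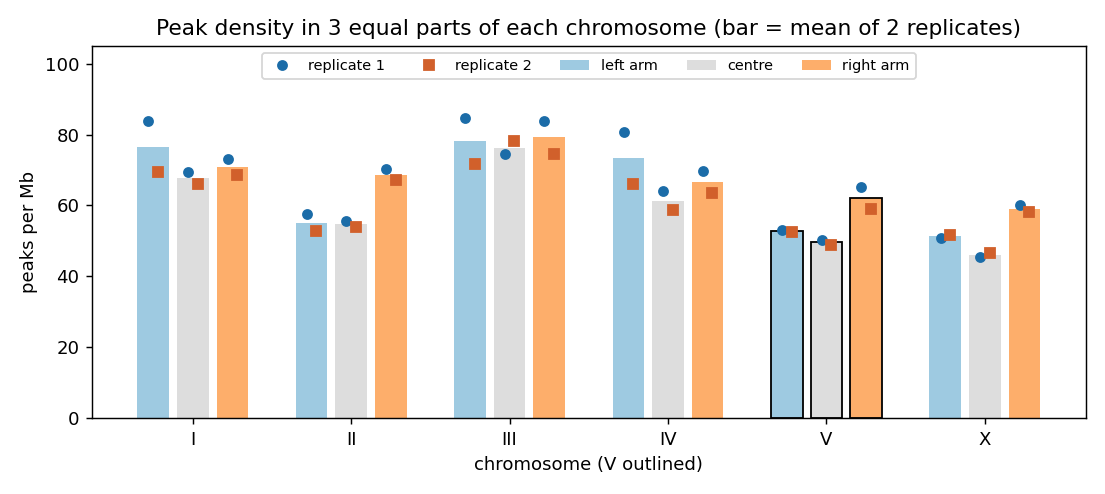
Peaks per Mb in the left arm, centre and right arm, each an equal part, of the 6 nuclear chromosomes, with V outlined; bars are means of 2 replicates and points the replicates. On V the right arm stands at 62.1, the left arm at 52.8 and the centre at 49.6, all with the 25.4 kb block of the left arm counted.

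The right end, where the pairing centre lies, was next set beside the left end. The last 1 Mb of V held 67 peaks in each replicate, against 46 and 53 in the first 1 Mb. The mean over the whole of V was 54.8 ± 1.86 peaks per Mb (SD, n = 2), so the right end was above it in both replicates (1.19 and 1.25 times) and the left end below it (0.819 and 0.990 times). Of the 67 right-end peaks, 53 (79.1%) had a partner in either direction, close to the share over the whole of V. Right ends were above the mean of their chromosome in both replicates on II, III, IV, V and X, and below it on I, so this was shared with most chromosomes. That comparison went by side alone. The other chromosomes were not sorted by which end carries their pairing centre, so it says nothing about pairing-centre ends as a group.

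Median scores at the right end matched those of V as a whole in replicate 1 and were higher in replicate 2. The median score was 178 in replicate 1 and 203 in replicate 2, beside 178 and 167 for all V peaks, and the median width was 413 and 412 bp. At the left end the median scores were 143 in replicate 1 and 123 in replicate 2, below those of V. The strongest shared region of the last 1 Mb was 19933016 to 19934123 (combined score 167, 3100 in both replicates), which lies 990 kb from the end. The others, in falling order, were 20474090 to 20474572 (combined score 96.9), 20778082 to 20778813 (85.0), 20101553 to 20102937 (77.0) and 20239944 to 20240389 (72.5). The region at 20474090 scored 1017 in replicate 1 and 277 in replicate 2.

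Within the last 1 Mb the peaks came in a cluster and a few sparse stretches. Between 400 and 500 kb from the end there were 17 and 13 peaks and 12 shared regions, spanning 89.4 kb (20424213 to 20513568), with scores from 102 to 1017 in replicate 1 and 50.6 to 502 in replicate 2. The 100 kb on its outer side had 1 peak in each replicate. Between 700 and 800 kb from the end there were 0 peaks in replicate 1 and 4 in replicate 2. The outermost 100 kb had 5 and 7 peaks, the last shared region being 20870221 to 20870588, 53.6 kb from the end.

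The tips differed. At the left tip a peak began at base 1 in every list, 402 bp wide with a score of 945 for replicate 1, and 403 bp wide with 1443 for replicate 2. At the right tip the last replicate 1 peak ended 42.4 kb before the end and the last replicate 2 peak 20.1 kb before it. The combined list had a 354 bp peak at 20923819 to 20924172, whose last base was used here as the end of V, and no replicate peak overlapped it.

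**Figure D3:**
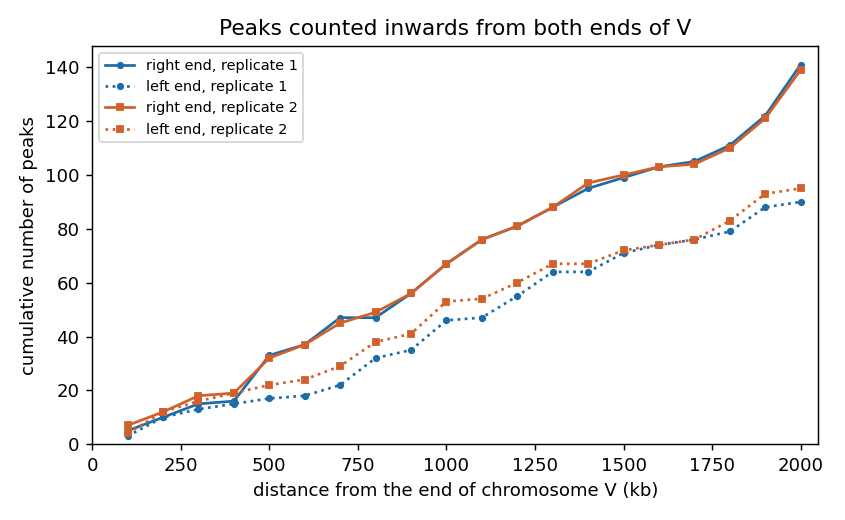
Cumulative number of peaks (vertical) within a given distance in kb (horizontal) of the right end (solid lines) and the left end (dotted lines) of V in replicates 1 and 2. At 1000 kb the right end has 67 peaks in both replicates and the left end 46 and 53, and at 2000 kb the counts are 141 and 139 against 90 and 95.

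Some of the widest peaks of V lay at the place on the right arm where the 5S ribosomal RNA array is known to lie. No annotation of WS220 was at hand to place the array genes, so its peaks were taken by position only. In the RefSeq annotation, on the later WBcel235 build and used here for gene names and order only, 14 5S genes of the rrn-4 family and 12 SL1 genes of the sls-1 family lie together, from rrn-4.2 to sls-1.1, and a 15th 5S gene lies elsewhere on V. On WS220, the shared regions at that position, joined where under 1000 bp apart, formed a block of 14.6 kb (17117710 to 17132327). Each list cut it into 3 peaks at nearly the same places.

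The middle peak was the widest of the 3, with 7071 bp in replicate 1 (17119764 to 17126834) and 6907 bp in replicate 2, and the combined list had 6790 bp. The right one measured 4613, 4242 and 4087 bp and the left one 1285, 1302 and 1282 bp. In replicate 1 the left peak scored 2028 and the other 2 scored 3100, and in replicate 2 all 3 scored 3100. The combined scores of 86.1, 92.9 and 91.5 were above 95% of that list. Gaps of 761 and 880 bp in replicate 1, and 788 and 1245 bp in replicate 2, separated the peaks.

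A further shared region (17115377 to 17116188) stood 1.52 kb to the left of the block, with scores of 1622 and 3100. Beyond it the surroundings were sparse, with the next shared regions 21.3 kb to the left and 62.9 kb to the right of the block, at combined scores of 14.5 and 13.4. The 3 block peaks held 1.87% of all peak bases of V in replicate 1 and 2.01% in replicate 2. The part of repeated sequence in this signal was not tested, and input was not analysed here.

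**Figure D4:**
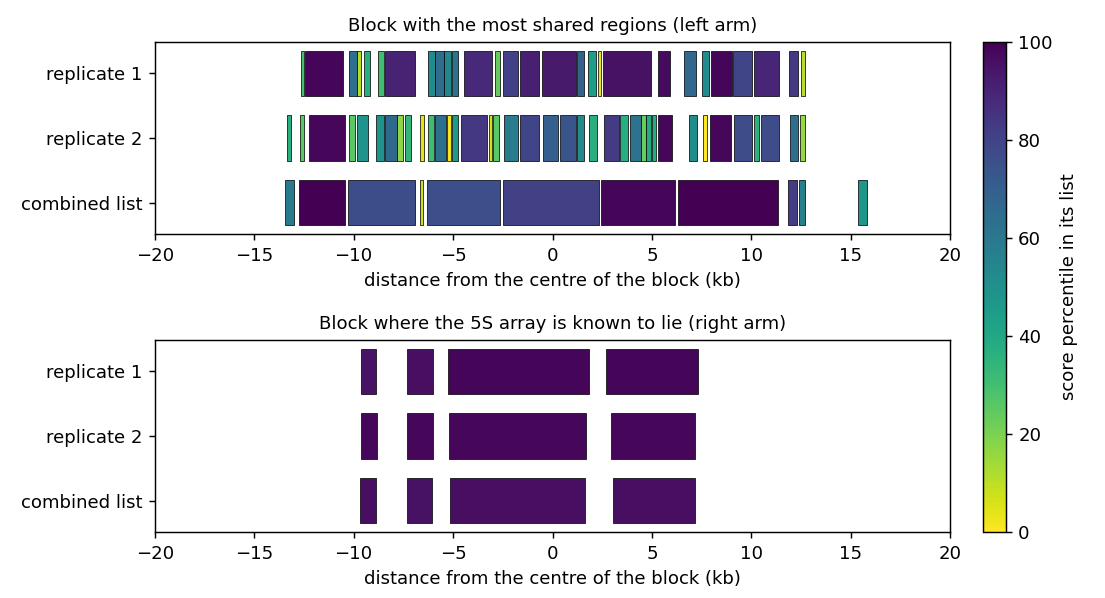
Peaks of replicate 1, replicate 2 and the combined list in the longest block of V (upper panel) and in the block at the place of the 5S array (lower panel), against distance in kb from the centre of the block and coloured by score percentile within the list. The longest block is cut into 28, 37 and 9 peaks of mixed rank, the lower one into 3 high-ranked peaks in each list, and peaks up to 3 kb outside a block are drawn as well.

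By the same joining, V carried 9 blocks that reached 5 kb, 93.6 kb in all, with 3 on the left arm, 4 in the centre and 2 on the right arm. This was 0.43 per Mb, against 0.524 to 0.743 on the other chromosomes. Of the shared regions of V, 30.4% had a neighbour under 1000 bp away, and 24.2% to 29.1% did on the other chromosomes. The longest block alone gave 25 of the 253 such regions of V.

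The longest block lay on the left arm and spanned 25.4 kb (6070712 to 6096144). It held 25 shared regions, 83.2% of its bases were inside them, and the lists of replicate 1, replicate 2 and the series cut it into 28, 37 and 9 peaks. These were 2.38% and 3.30% of all V peaks of the replicates. Scores within it ran from 54.1 to 3100 in replicate 1 and from 50.1 to 3100 in replicate 2. The peaks at 3100 in both lists stood near its left edge (6070985 to 6072914 in replicate 1) and on its right side (6091389 to 6092463). Another strong peak, 6088725 to 6089356, scored 2777 in replicate 1 and 3100 at its replicate 2 partner. This block supplied 28 of the 94 and 37 of the 103 peaks of the 6 to 7 Mb window. Without it the window still had 66 peaks in each replicate, above the medians of 54.0 and 51.0.

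The other block over 10 kb, on the right arm (17384086 to 17394596, 10.5 kb), was cut in different ways by the lists. Replicate 1 had 3 peaks there, replicate 2 had 12 and the combined list 1 peak, with 99.0%, 91.0% and 99.7% of the block covered. Its left edge also differed in score: the 2384 bp replicate 1 peak at 17384104 scored 111, and the replicate 2 peak at 17384086 to 17385425 scored 3100. Peak counts at such sites depend on how the caller divided them.

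The widest shared region of V was in the centre, 9412 bp (7915683 to 7925094), a lone peak in every list, with 3100 in both replicates and 107 in the combined list. After it came 8065 bp within the block just described (17386532 to 17394596), the 7071 bp middle peak at the place of the 5S array, 6966 bp in the centre (10605589 to 10612554) and 6722 bp on the left arm (3434555 to 3441276). The last pair also had lone peaks at 3100 in both replicates. Whether repeated sequence lies under these regions was not tested.

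Long stretches of V had no shared region. There were 40 gaps of 100 kb or more, 14 on the left arm, 11 in the centre and 15 on the right arm, and together they made up 24.9% of V. Per Mb this was 1.91 gaps, beside 1.58 on the X and 0.332 to 1.11 on I to IV. The median distance between neighbouring shared regions was nevertheless 11.3 kb, within the range of 9.03 to 13.9 kb of the other chromosomes. The number of long gaps per Mb was the highest of the 6 chromosomes, a difference that was not tested.

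The longest gap spanned 204 kb on the right arm (16040982 to 16244596). It held 5 peaks of replicate 1, none above a score of 92.4, and 0 of replicate 2. Next were 198 kb on the left arm (3054138 to 3251769), 175 kb on the right arm (18171294 to 18346042), 172 kb in the centre (11610876 to 11782689) and 159 kb on the left arm (2731196 to 2890621). The gap at 3054138 contained the unpartnered replicate 2 peak at 3098846. Over all 40 gaps there were 62 peaks of replicate 1 and 38 of replicate 2, unshared by definition, and 290 of the combined list, or 55.7 per Mb against 104 per Mb over the whole of V. The lower combined density is in part built in, because combined peaks over shared regions are kept out of the gaps by definition. On V, 780 of the 2179 combined peaks overlapped a peak in both replicates.

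In windows of 100 kb, V had a median of 3 shared regions, the lowest of the 6 chromosomes, where the others had 4 to 6. Its fullest window, from 6.0 to 6.1 Mb, had 29, against 12 to 17 in the fullest windows elsewhere, and 25 of the 29 belonged to the longest block. The next were 15 from 6.2 to 6.3 Mb and 13 from 18.9 to 19.0 Mb. Of the 209 windows 13 (6.22%) had none, compared with 8.47% on the X and 0.667% to 3.45% on I to IV.

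The combined list held many peaks on V that neither replicate had, most of them with low scores for that list. Of its 2179 peaks, 780 (35.8%) overlapped a peak in both replicates, 256 (11.7%) replicate 1 alone, 180 (8.26%) replicate 2 alone and 963 (44.2%) neither. The median scores of these sets were 31.8, 9.52, 10.4 and 5.10. The combined list came from MACS v2 and the replicate lists from MACS, and the combined scores begin far lower. How far these shares reflect the caller version or its cut-off, and not the samples, was not tested. Peaks in neither replicate were 37.4% to 44.7% of the list on the other chromosomes. On V they were at 46.7 per Mb on the left arm, 42.9 in the centre and 48.5 on the right arm, flatter than the peaks found in both, at 36.0, 33.4 and 42.4.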

How the data were processed

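ChIP-seq of ZHP-3 was measured in 2 ChIP samples, with 2 input samples for which no values were at hand here. The authors deposited 3 peak lists; per the file headers they are on WormBase WS220. Per the submitters' processing notes, BWA and the build ce10 were used, and per the second column of each file the caller was MACS or, for the combined list, MACS v2. Not given in the sources used here: its settings, the control and any pooling. The deposited score of each peak has no stated scale. The other values used, first and last base, are the authors' positions.

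Peaks of V were taken by chromosome name. Overlap meant 1 bp or more. Shared regions are merged intervals of overlapping peaks holding a peak of each replicate, and blocks join those under 1000 bp apart. The end of each chromosome is the last base of any list, and parts were assigned by peak midpoint. Ends are the outer 1 Mb. Sites named are the 10 strongest and 5 widest shared regions, the 5 strongest of the right end, blocks over 10 kb, the 5 longest gaps and extreme windows. The rule was written without saying what to do where several shared regions lie under the same combined peak, and 1 was then kept. Strong peaks without a partner, and the left arm to centre ratio, were added after their values were seen. The members and lists were chosen with earlier results of these data known. No statistical test was run. Interval functions were tested on simulated data. Python 3.11.15, NumPy 2.4.6, pandas 2.3.3, SciPy 1.17.1 and matplotlib 3.10.9 were used. Depth is unknown, so no precision from it can be given.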

Additional observations from a re-analysis of the deposited data

How the results depend on the processing

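No paired analysis was possible because only ChIP peak lists were at hand, so the replicate numbers that ChIP and input samples share pair no values. No result comes from a test. With the outer 25% at each end as arms the arm to centre ratio turned from 1.16 to 0.943, and the right to left ratio rose from 1.17 to 1.31; the dense 6 to 7 Mb window then lies in the centre. The arm to centre ratio was 1.13 by covered bases, 1.25 in the higher-scoring 50%, 1.09 in the combined list, 1.11 without the longest block and 1.07 with peaks under 1000 bp apart counted once. The left arm to centre ratio, examined after seeing the data, turned from 1.07 to 0.816 with the outer 25% as arms, 0.971 without the longest block and 0.983 with neighbours counted once; it was 1.14 in the higher-scoring 50% and 1.04 in the combined list. The right to left ratio was 1.09 in the combined list and 1.29 without the longest block. Without the block and counting neighbours once were chosen after seeing the data. Leaving out a replicate gave 1.14 to 1.17 (arm to centre), 1.12 to 1.23 (right to left) and 1.05 to 1.08 (left arm to centre), and 67.0 in the last 1 Mb. The right-end density was 65.0 per Mb in the last 500 kb, 70.0 in the last 2 Mb, 37.0 in the higher-scoring 50% and 125 in the combined list, each above its mean over V (1.19, 1.28, 1.32 and 1.20 times). A 50% reciprocal overlap gave 67.1% of peaks shared in place of 77.3%, and a longest gap of 258 kb (3054138 to 3312254) in place of 204 kb. The longest gap was 125 kb for peaks of either replicate and 99.0 kb in the combined list. The higher-scoring 50% gave 446 shared regions in place of 831. Joining under 500 bp gave 7.07 kb at the place of the 5S array and under 2000 bp 17.0 kb, in place of 14.6 kb, and under 2000 bp there were 17 blocks of 5 kb or more in place of 9. For the combined list, the ratios and the right-end density, the cause was not tested; the other shifts follow from how each setting is built. Of 43 alternatives, 17 left a value the same, 22 moved it and 4 reversed a ratio. The same meant within its spread or, for counts, within 1.5 times. For the span at the place of the 5S array and the longest gap a much narrower limit was used, under which nearly any change counted as moved. Leaving out a replicate falls within the spread by construction, so those settings among the 17 show no stability. For the right-end density the spread was 0, so any change counted as moved. The unknown read depth limits any reading of peaks in 1 replicate only.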
